A study of Schizosaccharomyces pombe with 56 samples.

Results

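Sexual differentiation in fission yeast (Schizosaccharomyces pombe) was followed here at 7 genes, chosen by name: the regulators ste11, mei2, ste7, ste6 and map1 and the pheromone receptor genes map3 and mam2. A gene was taken as measured where a region of the authors' deposited table overlapped its annotated body by at least 1 bp. Of the 7 genes, 5 lay under 1 region each, and map1 and mam2 lay under none and were not measured. The table lists 2192 regions over the genome, and 2800 of 5113 nuclear protein-coding genes, or 54.8%, lay under at least 1 of them.

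The mark profiled was dimethylation of histone H3 at lysine 9 (H3K9me2), which covers silent heterochromatin. Wild-type cells of strain 975 h+, a heterothallic strain of the P mating type, were collected during growth in minimal medium (0 h) and 24 h after transfer to the same medium without nitrogen. The labels list 6 H3K9me2 immunoprecipitations per time. The name of the deposited workbook gives the digits 1, 3, 4, 5 and 6, read here as 5 libraries per group. The clr4 and ago1 deletion strains of the same background were not analysed here.

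Starved fission yeast either mate or, without a partner, arrest and become quiescent. Loss of nitrogen lowers protein kinase A and TOR complex 1 activity, and the transcription factor Ste11 is then induced and switches on mating and meiosis genes. Pheromones from the opposite mating type act through a receptor, a G protein, Ras1 and a MAP kinase cascade that further activates Ste11. The RNA-binding protein Mei2 then commits diploid cells to meiosis. H3K9me2 is best known in this yeast at centromeres, telomeres and the silent mating-type cassettes, with small islands over some meiotic genes.

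Ste11 binds the TR-box, whose core TTCTTTG (7 bases) was searched on both strands in the 250 bases before the annotated start of each gene. 3 of the windows that held it are shown so that the H3K9me2 regions can be placed against the starts of the genes and the matches before them. The sequences are from RefSeq, build ASM294v3, written 5′ to 3′ in the direction of transcription, with the core in capitals. The windows printed are those of ste11 (chrII:3983126-3983375, plus strand), mei2 (chrI:4515026-4515275, minus strand) and ste7 (chrI:453562-453811, minus strand).
ste11: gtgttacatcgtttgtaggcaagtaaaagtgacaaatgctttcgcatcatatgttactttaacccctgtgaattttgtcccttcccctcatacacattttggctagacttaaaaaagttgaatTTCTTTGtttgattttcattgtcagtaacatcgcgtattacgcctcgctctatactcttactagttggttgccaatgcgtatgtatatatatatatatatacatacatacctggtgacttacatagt
mei2: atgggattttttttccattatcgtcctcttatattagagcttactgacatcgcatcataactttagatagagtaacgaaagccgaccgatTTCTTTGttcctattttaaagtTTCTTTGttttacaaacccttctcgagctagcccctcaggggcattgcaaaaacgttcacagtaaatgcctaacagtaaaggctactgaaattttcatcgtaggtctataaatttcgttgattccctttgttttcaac
ste7: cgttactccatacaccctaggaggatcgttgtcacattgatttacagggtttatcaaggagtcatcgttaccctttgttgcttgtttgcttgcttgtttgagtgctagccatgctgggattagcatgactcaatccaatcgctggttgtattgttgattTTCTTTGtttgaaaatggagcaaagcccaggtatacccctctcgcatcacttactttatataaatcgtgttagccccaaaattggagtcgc

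With -1 as the base before the annotated start, the mei2 window held 2 cores, starting at -160 and -138. The core started at -127 before ste11 and at -91 before ste7, and its reverse complement, CAAAGAA, at -178 before ste6. The windows of map1, map3 and mam2 held none. Over all 5112 upstream windows of full length, 7.81% held a core and 0.704% held 2 or more. No H3K9me2 region of the deposited table reached into any of the 7 members' windows. A match is only a run of letters, and no binding was measured. The annotations of ste6, map3 and mam2 begin at the coding sequence, so their windows lie before the start codon and the true transcription start may lie elsewhere.

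H3K9me2 rose at mei2, map3 and ste7 in the authors' deposited table, and stood higher at ste11 without a usable p-value. At ste6 the mean was 4.74 normalised reads at 0 h and 1.09 at 24 h in the authors' deposited table, also without a usable p-value. In all, 3 of the 7 genes (42.9%) lay under a region higher at 24 h at an FDR of 0.05, and 0 lay under a region lower at 24 h. The background was 10.5% of protein-coding genes under a higher region and 0.196% under a lower one, or 19.1% under a higher one among genes with any region. With 7 genes the share is a description only. The 3 rises were carried by 2 of 5 libraries each. Of the 451 regions called higher with recovered counts, 320 had signal in 2 libraries at 24 h and 131 in 3. Only 3 of the 5 libraries at 24 h, and 2 of the 5 at 0 h, had recovered signal in any region.

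**Figure D1:**
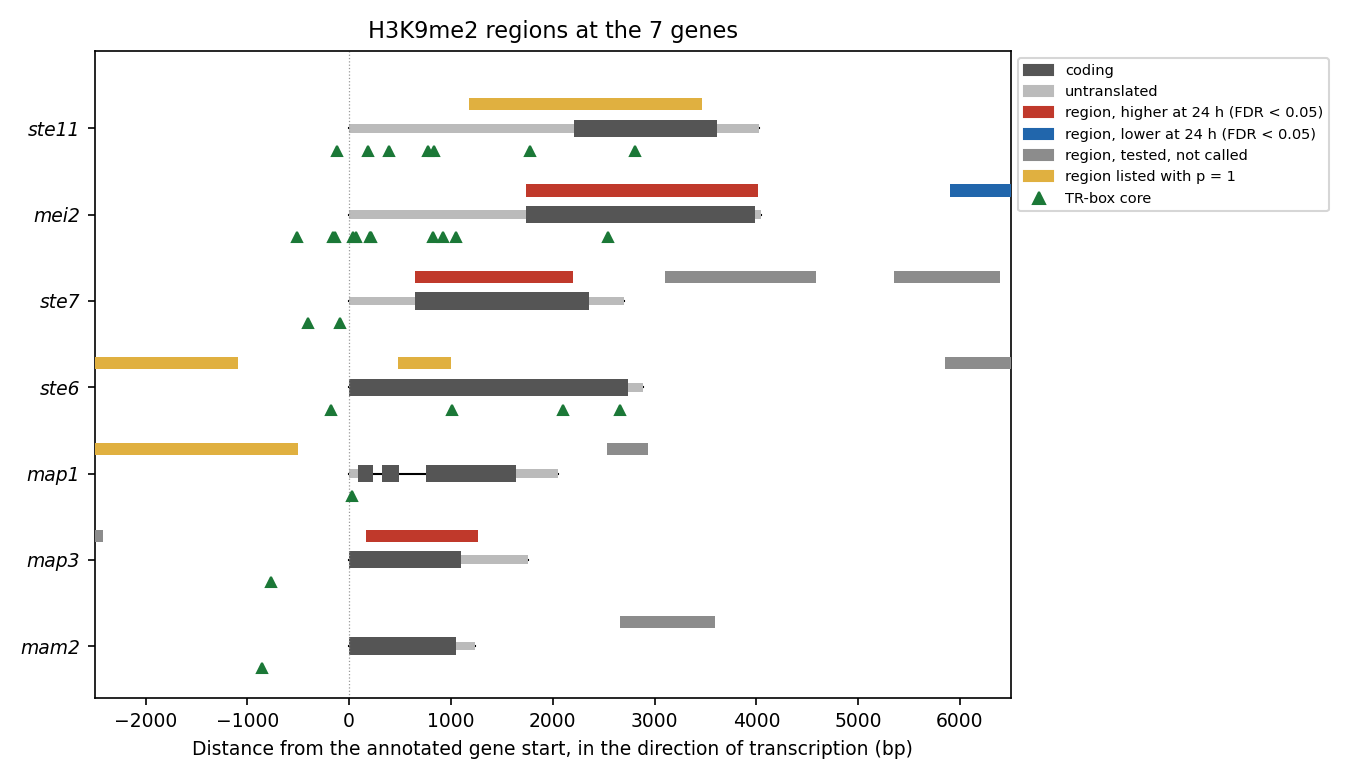
Maps of the 7 genes, with distance from the annotated gene start in bp on the horizontal axis. Bars above each gene are H3K9me2 regions coloured by their status in the authors' deposited table, and triangles below are TR-box cores. The 5 regions over the genes sit wholly or partly over coding sequence, and none of them contains the annotated start.

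The gene mei2 encodes the RNA-binding protein that is the switch into meiosis, and it is a target of Ste11. Its region, chromosome I 4511008 to 4513289 (build ASM294v2), is 2282 bp wide. It lay over 99.9% of the mei2 coding sequence and 32 bp of the trailer, and it left out the whole 1733 bp leader. The region began 1737 bp after the annotated start, so the cores in the upstream window and the early leader lay outside it. Long non-coding RNAs on the opposite strand, SPOM_SPNCRNA.4030 and SPOM_SPNCRNA.4031, overlap the same region, and an immunoprecipitation of DNA does not tell strands apart.

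At mei2 the mean at 0 h was 0.77 normalised reads in the authors' deposited table. This lowest value of the table was shared at 0 h by 1154 of 2192 regions. The mean at 24 h was 66.7. Against a floor of 3 counts per library at 0 h (2.31 normalised reads) this was at least 28.9-fold higher (the authors' FDR = 0.00139). The floor was a chosen value. Here and below, a fold of at least some value holds only if libraries at the minimum held no more reads than the floor. The level was higher than in 94.6% of all regions and, per length, reached 29.2 normalised reads per kb at 24 h against a median of 10.5 over all regions. Whole counts recovered from the group means put 103 counts above the minimum in one 24 h library (library A) and 284 in another (library B). The third 24 h library with recovered signal anywhere (library C), the remaining 24 h libraries and all 0 h libraries stood at their minimum. The mean above the minimum at 24 h was 66.0 ± 100.4 normalised reads (SD, n = 5) against 0 at 0 h. The groups overlapped at the minimum, as they had to in every region with recovered counts, because some libraries of each group always stood there. An exact permutation test over the 5 and 5 libraries was void at the members. Its two-sided p is fixed at 0.444 by signal in 2 libraries of one group, whatever the counts, and at 1 by signal in a single library. Even 3 libraries with signal, the most any 24 h region with recovered counts had, give no less than 0.167 in the exact permutation test.

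The next region beyond the end of mei2 went the other way, and it is named here after its values were seen. At chromosome I 4507736 to 4509122, over grp1 and the non-coding RNA SPOM_SPNCRNA.992, the authors' deposited table gave 16.9 normalised reads at 0 h and the minimum at 24 h. It was at least 7.31-fold lower at 24 h (the authors' FDR = 0.00806), with 66 and 29 counts in the 2 libraries with recovered signal at 0 h. A gap of 1885 bp separated it from the mei2 region. Of all tested regions, 0.722% were lower and 32.7% higher at 24 h.

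The gene ste7 encodes a protein that fission yeast needs for mating. Its region, chromosome I 451359 to 452911, lay wholly in the coding sequence and covered 90.8% of it, with no other annotated gene. By the authors' deposited table the mean was 0.77 normalised reads at 0 h and 9.56 at 24 h, at least 4.14-fold higher (the authors' FDR = 0.0200). Library A held 16 counts and library B 35, and the other libraries of both groups were at their minimum. The 24 h mean above the minimum was 8.79 ± 12.8 normalised reads (SD, n = 5). The groups overlapped at the minimum, as in every region with recovered counts. Of the regions called higher, 9.05% stood lower at 24 h than ste7, and 31.8% of all regions did.

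The gene map3 encodes the receptor for M-factor, the pheromone of the opposite mating type, and is used by P cells such as these. Its region, chromosome I 2833720 to 2834823, covered 85.0% of the coding sequence and 171 bp of the trailer. The authors' deposited table gave 0.77 normalised reads at 0 h and 18.8 at 24 h, at least 8.14-fold higher (the authors' FDR = 0.00717). The whole region also lies within his6, a gene annotated on the opposite strand, so its reads cannot be assigned to map3 rather than his6. Library A held 31 counts and library B 74, with the rest at the minimum. The mean above the minimum at 24 h was 18.0 ± 26.6 normalised reads (SD, n = 5). The groups overlapped at the minimum, as in every region with recovered counts. Per length the region reached 17.0 normalised reads per kb, above 71.4% of all regions.

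**Figure D2:**
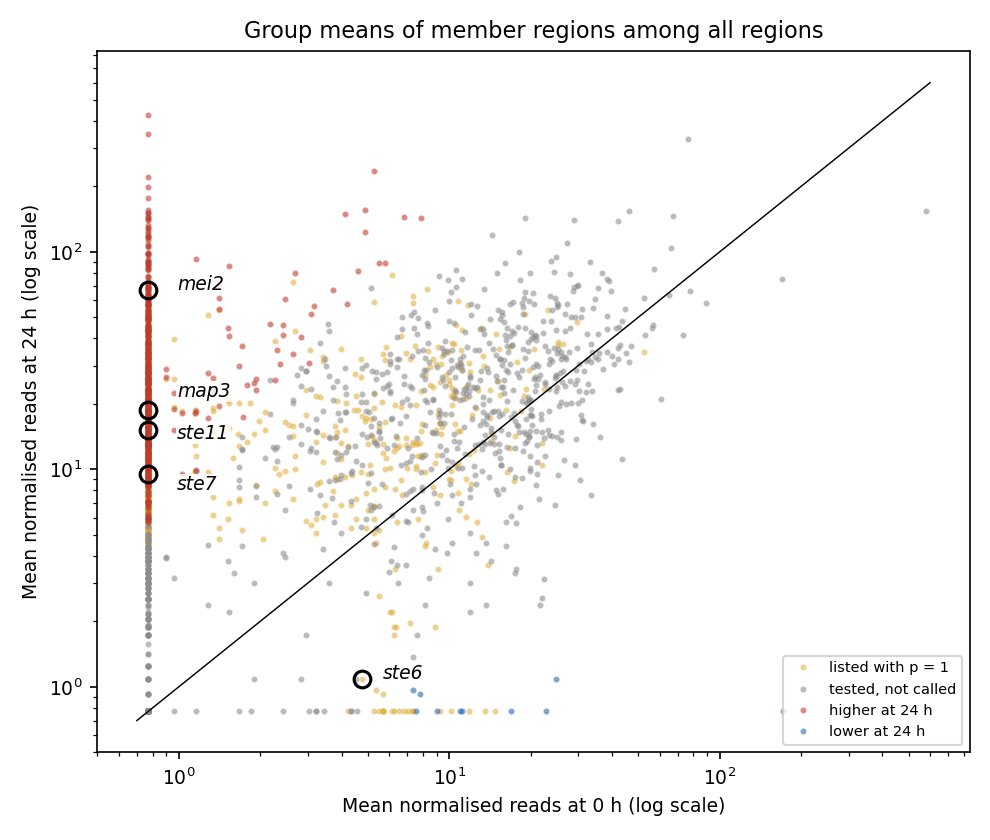
Mean normalised reads at 0 h (horizontal, log scale) against 24 h (vertical, log scale) for the regions of the authors' deposited table below 600 normalised reads at both times, coloured by status, with the 5 member regions circled. The regions at mei2, map3, ste11 and ste7 stand at the 0 h minimum with 24 h means of 66.7, 18.8, 15.1 and 9.56, and ste6 stands below the line of equal values.

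The gene ste11 encodes the HMG-box transcription factor at the head of the mating programme. Its region, chromosome II 3984548 to 3986842, covered 89.3% of the coding sequence and the last 1038 bp of a 2210 bp leader. Antisense non-coding RNAs, SPOM_SPNCRNA.6380 and SPOM_SPNCRNA.6381, overlap it. The mean in the authors' deposited table was 0.77 normalised reads at 0 h and 15.1 at 24 h, a log2 change of 4.30, but the p-value and FDR were listed as 1. The recovered counts put 90 counts in library B and 0 above the minimum in every other library of either group. The 24 h mean above the minimum was 14.4 ± 32.1 normalised reads (SD, n = 5). Without library B the log2 change at ste11 was -0.01. Of the 7 TR-box cores in the ste11 gene and the 1000 bases before it, 2 lay within the region.

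A p of 1 was common where a single library held the signal, as at ste11. Of 560 regions at the 0 h minimum with signal in a single 24 h library, 440 were listed with a p of 1 and 120 were tested. The tested ones held at most 23 counts in that library and those listed with a p of 1 held at least 23. Across the 806 regions with a p of 1 and recovered counts, 688 had signal in 1 library at 24 h, 92 in 2, 7 in 3 and 19 in none. Signal in 1 library at 24 h was also found in 288 of the 908 tested regions that were not called, and in 0 of the 451 called higher. The ste11 mean stood between those of map3 and ste7 while its p was 1, and the table does not test H3K9me2 at ste11.

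The gene ste6 encodes the guanine nucleotide exchange factor that loads Ras1 in the pheromone pathway of this yeast. Its region, chromosome III 1766561 to 1767081, is the narrowest of the 5 at 521 bp and covered 19.0% of the coding sequence. The antisense non-coding RNA SPOM_SPNCRNA.1227 spans it. The authors' deposited table gave 4.74 normalised reads at 0 h and 1.09 at 24 h, with a p-value and FDR of 1. Library B at 0 h held 31 counts, library B at 24 h held 2, and the others were at the minimum, so the difference rests on 1 library. Without the 0 h library B the log2 change turned from -2.12 to 0.44. Library letters name libraries within a time only and do not pair them.

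**Figure D3:**
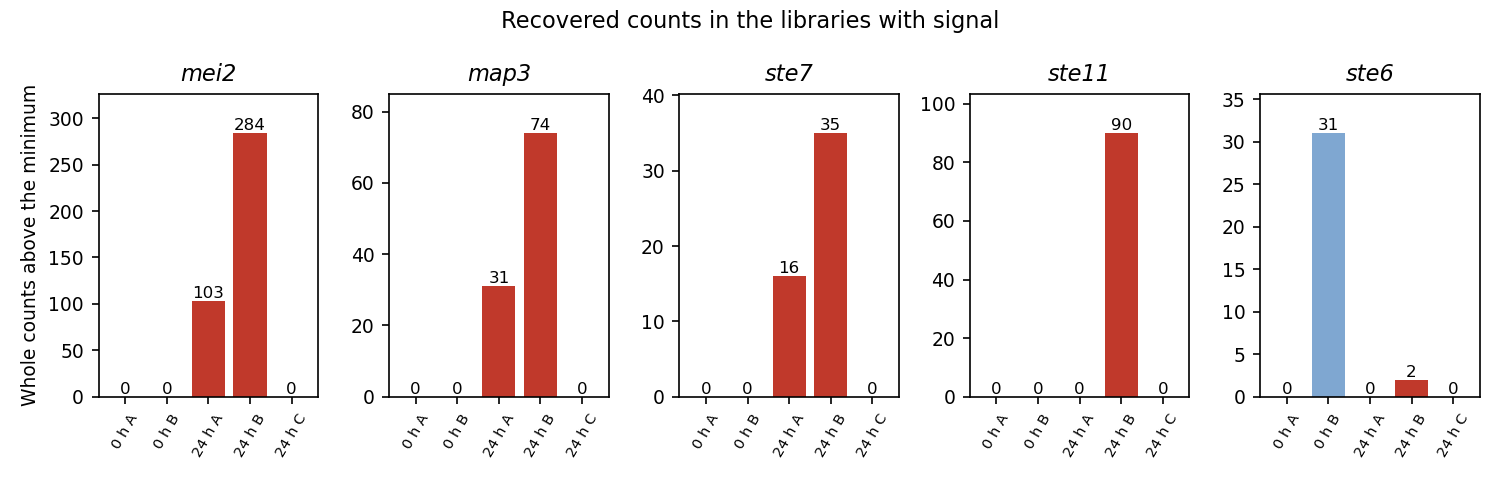
Whole counts above the minimum, recovered from the group means of the authors' deposited table, in the 2 libraries with signal at 0 h (blue) and the 3 at 24 h (red), for the 5 measured genes. Each panel has its own scale from 0, and the libraries at their minimum throughout are not drawn. Counts at mei2, map3 and ste7 stand in the 24 h libraries A and B, those at ste11 in B alone, and those at ste6 mainly in the 0 h library B.

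The genes map1 and mam2 had no overlapping region. The gene map1 encodes a MADS-box factor that activates P-specific genes, map3 among them. The nearest regions lay on either side of it. The one 487 bp beyond its end, chromosome I 5295239 to 5295643, had means of 2.56 and 8.41 normalised reads at 0 h and 24 h in the authors' deposited table (the authors' FDR = 0.373). The one 499 bp before its start, chromosome I 5289003 to 5292205, went from 0.77 to 36.2 there, with a p of 1. The gene mam2 encodes the receptor for P-factor, which M cells use and these P cells do not. Its nearest region lay 1427 bp beyond its end, at chromosome I 4783350 to 4784284, and had means of 3.60 and 14.0 normalised reads (the authors' FDR = 0.333, deposited table). A gene without a region is not measured here, and its H3K9me2 level is unknown.

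The 3 rises shared a library pattern, signal in A and B, found in 439 of the 451 regions called higher with recovered counts. At mei2 library B held 227 normalised reads above the minimum and library A 103. The ratio of B to A was 1.91 at map3 and 1.75 at ste7. For the 439 regions called higher with signal in both, the median ratio was 1.80, with lowest and highest deciles of 0.821 and 5.35. Library B held 73.8% of all recovered 24 h reads, library A 20.3% and library C 5.84%. The part of single libraries in the member rises was not tested beyond leaving each out. Without library B the log2 changes at mei2, map3 and ste7 were 5.11, 3.47 and 2.63. Their direction could not have turned, because library A held counts at each and every 0 h library was at the minimum. Fitted with limma to the recovered values as log2(value + 1), the 2174 resolved regions gave adjusted p = 0.611 at mei2, map3, ste7 and ste11 and 0.805 at ste6. limma called 0 of the 2174 regions (0%), and at an unadjusted p under 0.05 there were 73 higher and 0 lower regions. The fit held 3 of the 5 libraries at 0 h and 2 of the 5 at 24 h at 0 in every region. Signal in a group therefore always came with a wide spread, and the fit could not settle whether the members rose.

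Position within the gene was common to the members and to the table. The regions of all 5 measured genes lay wholly inside the gene, as did 96.7% of the 1562 regions over exactly 1 protein-coding gene. Coding sequence was covered to 80% or more at 4 of the 5, against 46.2% of the 2800 genes with a region and 54.2% of the 535 genes under a higher region. The annotated start lay in a region for 7.64% of genes with one and for 0 of the 5. Of 27 TR-box cores in the 7 genes and the 1000 bases before each, 3 lay in a region, 2 at ste11 and 1 at mei2.

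The regions nearest in level show how similar means came from different libraries. The measure was the distance between pairs of log2 group means, over the 2 times, among regions over a single protein-coding gene. Since all stood at the 0 h minimum, only the 24 h mean told them apart. Nearest to mei2 were mae2, which encodes malic enzyme, and asl1, at 66.6 and 67.5 normalised reads in the authors' deposited table (the authors' FDR of 0.000611 and 0.000594). Both had counts in libraries A, B and C, namely 128, 196 and 60 at mae2 and 85, 232 and 85 at asl1. Nearest to ste7 were cnp20 and rix7, each at 9.55 normalised reads with 55 counts in library B only, and both were listed with a p of 1 in the authors' deposited table. Nearest to map3 were mik1, which encodes a mitotic inhibitor kinase, with 113 counts in library B only and a p of 1, and SPOM_SPAC10F6.17C, with 30 and 75 counts in A and B (the authors' FDR = 0.00717).

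The wider pathway was read from 9 lists with 69 genes, of which 45 lay under a region. Of the 69, 8 (11.6%) lay under a region higher at 24 h by the authors' deposited table and 0 under a lower one, close to the 10.5% of all protein-coding genes. The 69 include the 7 members, and mei2, ste7 and map3 are among the 8. A further 18 lay under tested regions that did not pass, 19 under regions with a p of 1 alone and 24 under none. The median log2 change of the 47 regions over listed genes was 2.97 in the authors' deposited table, against 2.43 over all 2192 regions. Library B was the sole 24 h library with signal in 25 of the 47, and library C had signal in 9.

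In the receptor and agglutinin list 2 of 4 genes were called, against 10.5% of all protein-coding genes, and map3 is one of them although its region also lies in his6. The other was map4, encoding the P-cell agglutinin that holds mating cells together, which rose from the minimum to 33.6 normalised reads, a change of at least 14.5-fold (authors' deposited table, the authors' FDR = 0.00364). Its counts were 33 in library A and 164 in B. The M-cell agglutinin gene mam3 reached a 24 h mean of 22.5 normalised reads by the authors' deposited table, with 136 counts in library B alone and a p of 1. Of the 10 genes for pheromone production and export, 0 were called and 6 had no region, the 3 M-factor genes mfm1, mfm2 and mfm3 among them. The P-factor gene map2 had means of 5.36 and 5.37 normalised reads at 0 h and 24 h in the authors' deposited table. Its counts were 6 and 27 at 0 h and 19 and 5 at 24 h. For the 4 genes of pheromone degradation and desensitisation 0 were called, and the protease gene sxa1 had means of 7.24 and 51.4 normalised reads (the authors' FDR = 0.197, deposited table).

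The G protein and MAP kinase list, which holds ste6, had 0 of 8 genes called and 4 without a region, among them the G protein gene gpa1 and ras1. The MAP kinase kinase kinase gene byr2 had means of 0.77 and 4.44 normalised reads by the authors' deposited table (the authors' FDR = 0.105), and its 23 counts were in library B alone. The cell fusion list had 0 of 6 called. Over all protein-coding genes the share was 10.5%, so a 0 in so short a list is a description only.

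Transcription factors had 2 of 10 genes called, against 10.5% of all protein-coding genes, and in so short a list the count is a description only. The authors' deposited table gave at least 27.4-fold for atf1, which encodes a stress-activated bZIP factor, with 63.1 normalised reads at 24 h (the authors' FDR = 0.000960). Its counts were 136, 210 and 11 in libraries A, B and C. The helix-loop-helix factor gene esc1 rose from a mean of 1.71 normalised reads to 37.0 by the authors' deposited table (the authors' FDR = 0.0142), with 59 and 153 counts in A and B. Tested factors that did not pass included rst2, an activator of ste11, with means of 33.8 and 22.9 normalised reads, and pcr1, the partner of Atf1, with 12.6 and 4.12, by the authors' deposited table. The gene mei4, which encodes a meiotic forkhead factor and is known for a heterochromatin island, had means of 7.56 and 10.3 normalised reads in the authors' deposited table and a p of 1.

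The meiotic switch list had 2 of 6 called, against 10.5% of all protein-coding genes, and both, mei2 and ste7, are the members already described. The other 3 genes with a region stood above the minimum at 0 h. The Mei2 inhibitor kinase gene pat1 (also ran1) had means of 13.9 and 27.9 normalised reads, the meiotic RNA elimination gene mmi1 12.4 and 35.4, and the TOR complex 1 gene mip1 56.2 and 44.8, by the authors' deposited table. None of these passed, and their authors' FDR values were 0.766, 0.592 and 0.988 in the deposited table.

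The nutrient pathways gave 2 of 11 genes called for cAMP and protein kinase A and 0 of 10 for TOR. Of all protein-coding genes 10.5% were called, and with lists this short the 2 counts do not tell the pathways apart. The region over pka1, the catalytic subunit that represses ste11 in fed cells, rose at least 12.2-fold to 28.2 normalised reads (the authors' FDR = 0.00432, deposited table), with 55 and 103 counts in A and B. The other was git10, better known as hsp90, a general chaperone gene, at least 38.8-fold higher in the authors' deposited table (the authors' FDR = 0.000380). Of the 8 TOR genes with a region, 5 had a p of 1. The tor1 region is an example, with means of 5.29 and 58.9 normalised reads in the authors' deposited table, 24 counts in 1 library at 0 h and 364 in library B at 24 h.

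**Figure D4:**
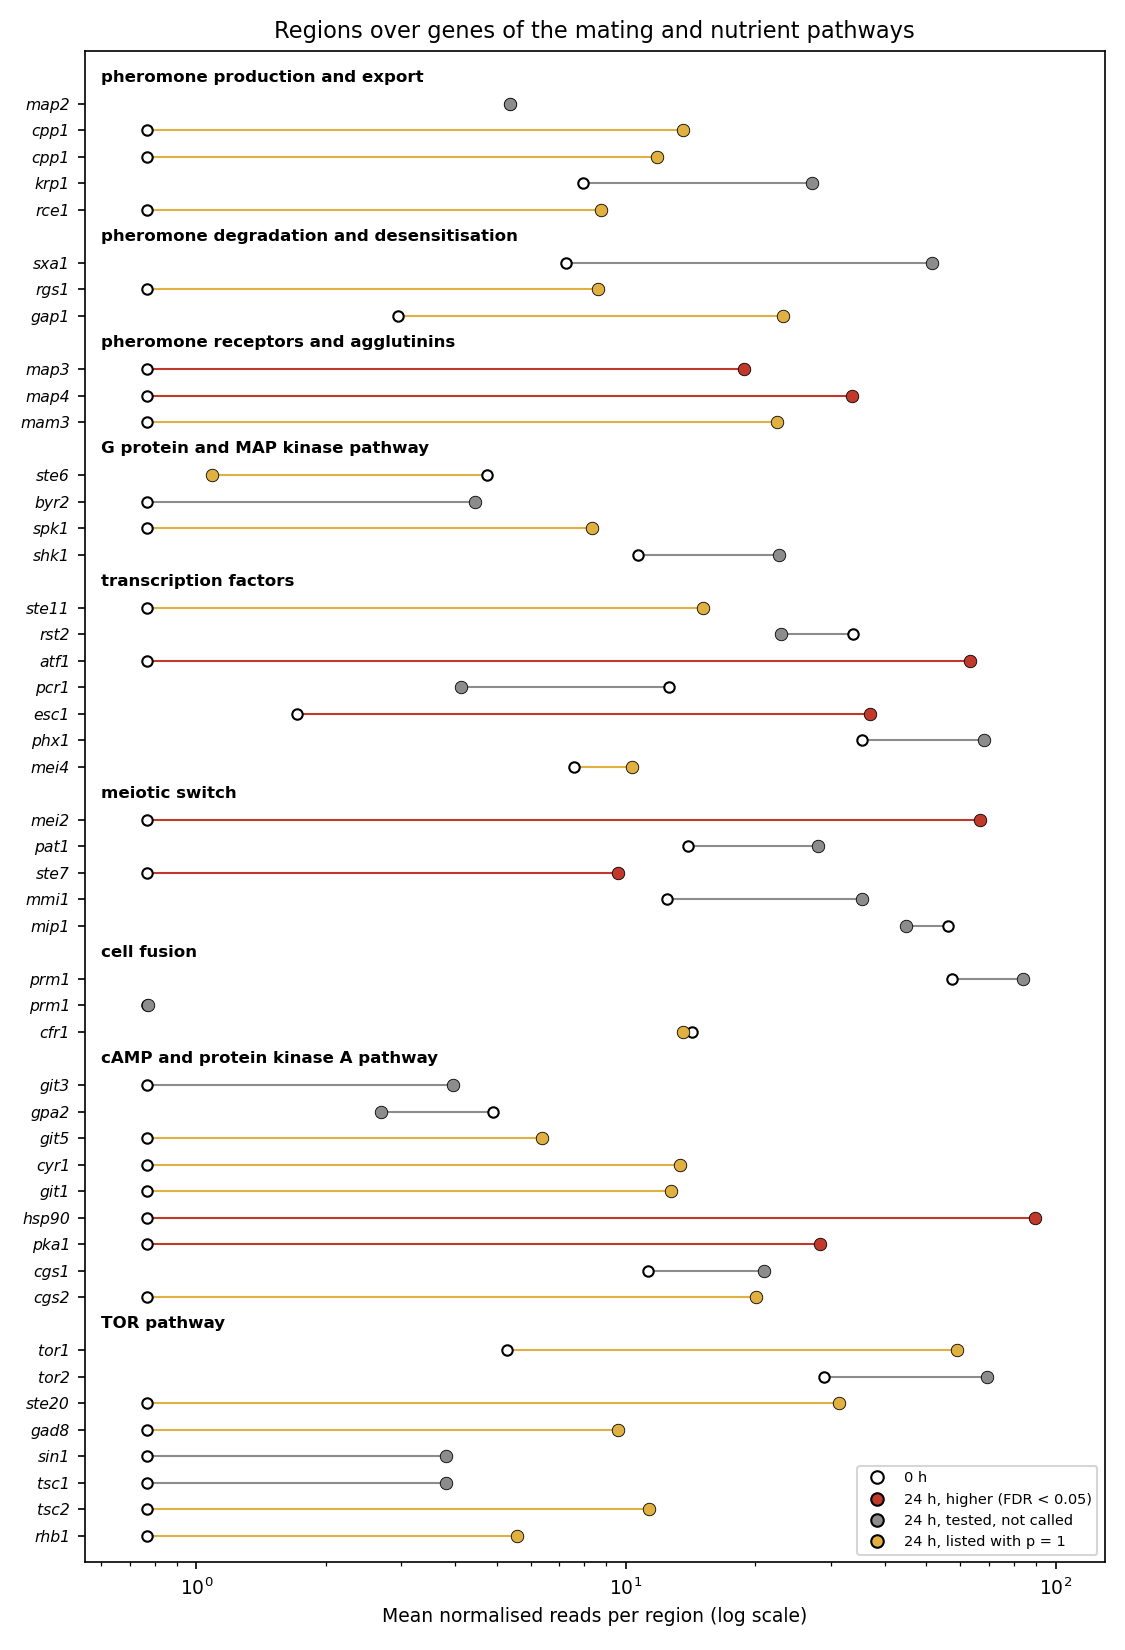
Mean normalised reads per region (log scale) at 0 h (open) and 24 h (filled) over the listed genes that lay under a region, by list, with colour for the status in the authors' deposited table. A gene with 2 regions appears on 2 lines. The called regions (red) are those of map3, map4, atf1, esc1, mei2, ste7, hsp90 and pka1.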

How the data were processed

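The authors deposited log2 values per region, namely the mean normalised reads at 0 h and at 24 h and the log2 fold, together with a p-value and an FDR, per the file headers. Bowtie2 2.2.7, MACS2 2.1, DiffBind 1.16.3, DESeq2 and build ASM294v2 are named in the submitters' processing notes without role or order. Depth per library, filters and input subtraction are not stated there. The sign of the fold was turned to 24 h minus 0 h. Benjamini-Hochberg adjustment over 1385 tested regions gave the deposited FDR, and 807 more were listed with a p-value of 1.

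No values per library were at hand, so the authors' folds and FDR (threshold 0.05) were described. Group means were decomposed into whole counts above the group minimum, assuming 5 libraries per group, within a relative tolerance of 3e-14 and up to 600 normalised reads. This resolved 2177 of 2192 means for 0 h and 2175 for 24 h, with a single solution each, and 0 of 1026 and 2029 shifted means. Signal came from 2 libraries at 0 h and 3 at 24 h. The procedure was tested on simulated data. To log2(value + 1) a trended limma model was fitted (limma 3.58.1, R 4.3.3), with libraries without recovered signal set to 0. Exact two-sided permutation tests of the 5 measured genes (scipy 1.17.1) were void, since their p is set by the number of libraries with signal. If input reads were subtracted, a library at its minimum may have held more reads. Nothing says whether libraries came from separate cultures, so p-values measure the spread between libraries, which may be technical.

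Genes came from the RefSeq annotation of ASM294v3, in which the 3 nuclear chromosomes end where the last regions of the table end. Coordinates are counted from 1. Members and lists were chosen with earlier results of these data known. Named genes are the 7 members, every listed gene under a called region, the 2 regions over a single gene nearest in level to each called member, and others as contrasts chosen after their values were seen. All 69 listed genes matched the annotation.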

Additional observations from a re-analysis of the deposited data

Results flagged for a closer look

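In 28 regions over named genes, each group of 5 recovered libraries was checked for a highest or lowest value that stood apart from the rest by more than 0.71 of the range. This is Dixon's 95% critical value, which chance exceeds in about 5% of groups of normally distributed values. That rate does not hold here, where 3 of the 5 libraries at 0 h and 2 of the 5 at 24 h always stood at the minimum. Most libraries stood at the minimum, so a single library with signal always stands apart. Values here are normalised reads above the minimum in the library that stood apart.

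At 24 h ste11 was carried by 1 library with 71.9, and the other 4 were at 0. At 0 h ste6 had 19.9 in 1 library and 0 in the others, and at 24 h it had 1.6 in 1 library and 0 in the others. The 24 h value of map4 was 131 in its highest library, with 33 in the next. At 0 h esc1 had 4.71 in 1 library.

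The highest library also stood apart at other genes of the pathway. At 0 h these were sxa1 with 31.1, mei4 with 34, mmi1 with 58.3 and tor1 with 22.6. At 24 h they were map2 with 19, mam3 with 109, byr2 with 18.4, rst2 with 85.4, pcr1 with 16.8, mei4 with 44.7 and tor1 with 291. Among the regions nearest in level to the members, it was so at 24 h at cnp20 and rix7, each with 43.9, and at mik1 with 90.2.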

How the results depend on the processing

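The count of 3 member genes under higher regions was 2 at an FDR of 0.01, where ste7 was lost, and 3 with gene bodies extended by 500 bp, with at least 50% of the region in the gene, and with adjustment over all listed regions. With limma on the recovered values it was 0, and 0 to 0 when any library was left out. In each of these settings limma called 0 of the 2174 regions, so the 0 was not particular to the members. The fit held the libraries without recovered signal at 0 in every region, so it could not settle whether the members rose. The cause of the 0 was not tested. The 8 listed genes became 6, 9, 8 and 8 under the first 4 alternatives. Scaling to equal totals added 0.54 to each log2 change. Setting the median change of tested regions to 0 shifted each by -1.72 and left mei2 at 4.72, map3 at 2.89, ste11 at 2.58, ste7 at 1.91 and ste6 at -3.84. Leaving out each library in turn gave 5.11 to 6.76 at mei2, 3.47 to 4.92 at map3, 2.63 to 3.94 at ste7, -0.01 to 4.61 at ste11 and -2.63 to 0.44 at ste6. Members more than 1 log2 unit higher numbered 4, and 3 to 4 when a library was left out, an alternative chosen after seeing the data. No paired analysis was possible because the table holds group means and the recovered libraries carry no replicate numbers. Depth per library is unknown, so no counting interval was given.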
